A study of Mus musculus with 6 samples.

Results

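Polycomb and trithorax genes encode opposing groups of chromatin regulators, and 44 mouse genes of these groups were followed in RNA of stem cell-enriched bone marrow measured on 6 expression arrays. They were chosen by name: components of the Polycomb repressive complexes, trithorax and COMPASS components, and the demethylases of histone H3 lysine 27 (H3K27) and lysine 4 (H3K4). Of the 44 genes, 43 had at least 1 probe set annotated to their symbol alone that passed the filter on low values, out of 11529 genes measured in this way. Rybp was the exception, since both of its probe sets are annotated jointly with the pseudogene Rybp-ps. The 43 genes had 121 probe sets, of which 111 were tested and 10 were too dim.

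Lineage-negative, Sca1-positive cells were sorted by flow cytometry from tibias and femurs. The groups were wild-type (WT) mice and double knockout (DKO) mice without the nuclear receptor genes Nr4a1 and Nr4a3, with 3 arrays each. All mice were 2 to 3 weeks old, and 10 to 20 of them were pooled for every array. The DKO mice came from crosses of the single knockouts on a C57BL/6 and 129SvJ hybrid background, while the labels name no strain for the WT mice and no sex for either group. At issue is whether transcript levels of the chromatin regulators change when both receptors are lost.

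Polycomb repressive complex 2 (PRC2) methylates H3K27 through its catalytic subunit EZH1 or EZH2, and PRC1 ubiquitinates histone H2A and compacts chromatin, so that both keep developmental genes silent. Trithorax proteins of the MLL (KMT2) family methylate H3K4 within COMPASS complexes and keep genes such as the HOX clusters active. Demethylases of the KDM6 family remove methyl groups from H3K27, and KDM5 and KDM1A remove them from H3K4. In blood stem cells BMI1 is needed for self-renewal, EZH2 and EZH1 for the maintenance of stem cells at different stages of life, and KMT2A (MLL1) for HOX gene expression.

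No gene of these groups was called different between DKO and WT cells, and 1 probe set of Kdm5b was. Signals are MAS5 signals on a linear scale, differences are those of log2(signal + 16), DKO minus WT, with standard errors, and a gene is represented by its brightest tested probe set. None of the 43 genes passed the threshold of an adjusted p of 0.05 (limma, Benjamini-Hochberg over 27022 probe sets), where 1.71% of all genes did. At an unadjusted p under 0.05 there were 7 of 43, or 16.3%, the same share as among all genes (16.3%). Of the 7, 5 were lower in DKO, beside 997 of the 1874 genes at that p over the whole table. The median difference of the 43 was -0.11, with 29 lower (67.4%) and 14 higher, against a median of -0.0078 and 50.8% lower over all genes. The median depends on the scaling: with each array centred on its median it was -0.0050 with 22 of 43 lower, beside 0.10 and 41.3% lower for all genes. With an array left out the median lay between -0.17 (without WT replicate 2) and -0.083 (without DKO replicate 2). Differences ran from -1.001 for Phc3 to 0.86 for Dot1l. The groups did not overlap and DKO was lower in 7 genes (16.3%), against 11.3% of all genes, and DKO was higher without overlap in 2 (4.65%), against 10.7%.

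**Figure D1:**
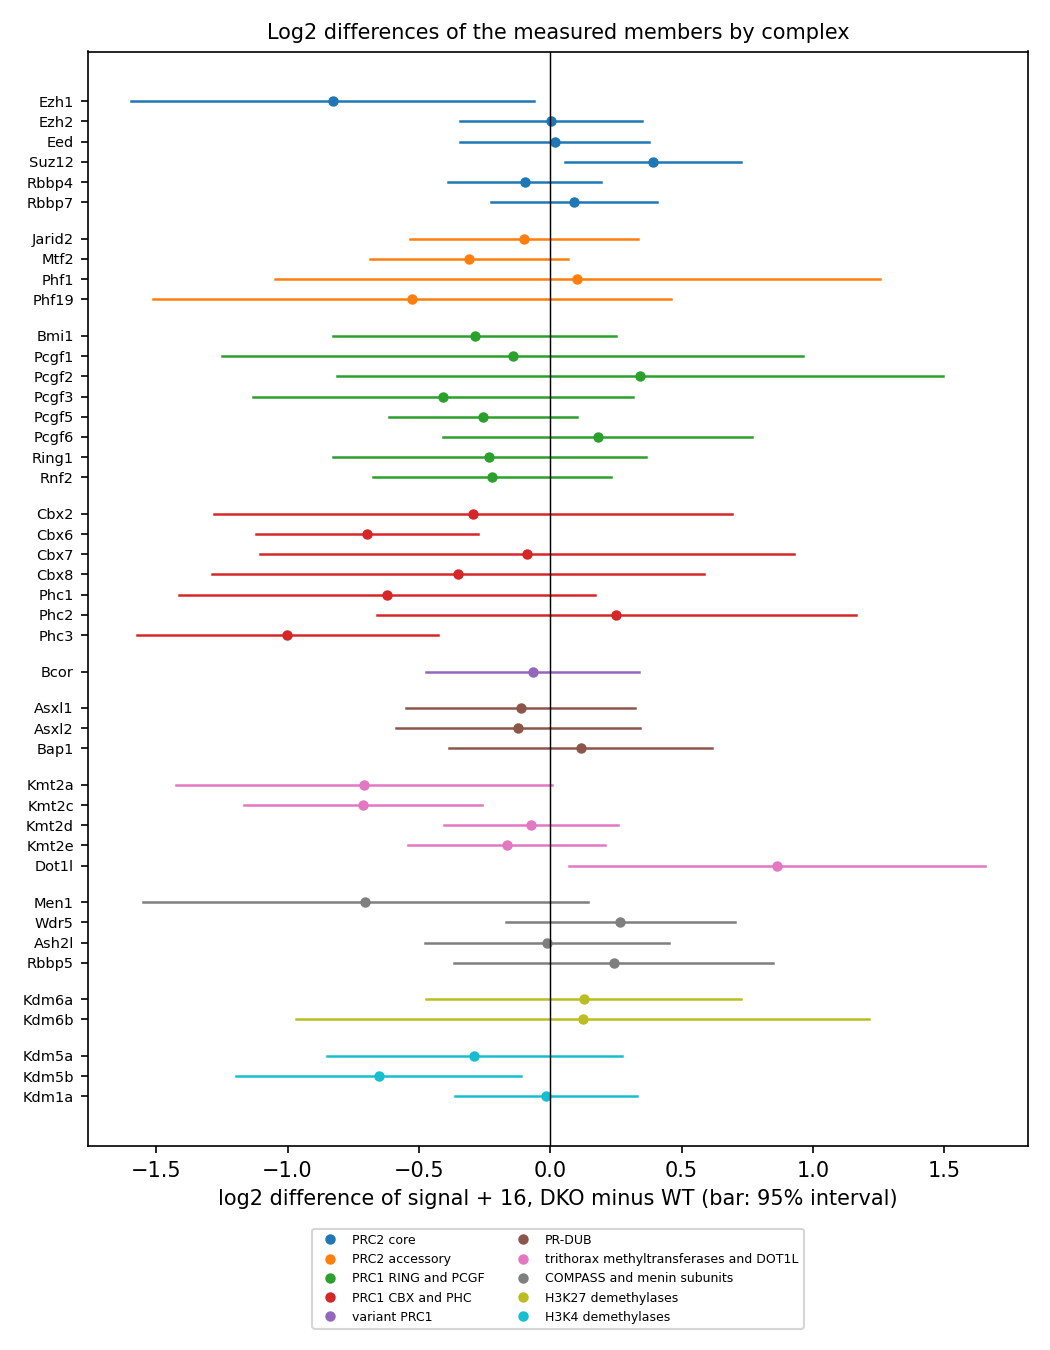
Log2 difference (DKO minus WT, x axis) of each of the 43 measured genes (y axis), grouped and coloured by complex, with points for estimates and bars for 95% intervals (n = 3 arrays per group). Most intervals include 0; those of Phc3, Cbx6, Kmt2c, Kdm5b and Ezh1 lie below it and those of Suz12 and Dot1l above it, before adjustment for the number of probe sets.

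Among the 111 tested probe sets of these genes 1 passed the threshold, or 0.901%, against 1.37% of all probe sets. It belongs to Kdm5b, a demethylase that removes methyl groups from H3K4. At this probe set, 1427142_s_at, signals were 1224, 1578 and 1472 in WT and 686, 593 and 638 in DKO. All DKO arrays lay far below all WT arrays. The mean fell from 1425 ± 181 (SD, n = 3) to 639 ± 46.5 (SD, n = 3), a log2 difference of -1.13 ± 0.23 (adjusted p = 0.0409 with limma). The call was lost with any 1 array left out (adjusted p = 0.0775 to 0.131, with differences of -1.24 to -1.06). It was also lost without an intensity trend (adjusted p = 0.123), with no filter on low values (0.0596), with quantile normalization (0.0512) and with median centring (0.0679).

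The brightest Kdm5b probe set, 1427143_at, was at 2003, 3048 and 2596 in WT and at 1416, 2184 and 1303 in DKO. Here DKO replicate 2 lay above WT replicate 1, so the groups overlapped, and the difference of -0.65 ± 0.25 did not pass (adjusted p = 0.251). The 2 dimmer Kdm5b probe sets were at -0.63 ± 0.52 and -0.49 ± 0.46, so that all 4 had the same sign.

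Kdm5a, the other KDM5 demethylase among the listed genes, had 6 tested probe sets, and all were lower in DKO, at -0.67 to -0.04, without a call. Its brightest probe set was at 1367, 1179 and 864 in WT and 1025, 766 and 963 in DKO, which overlapped (-0.29 ± 0.26, adjusted p = 0.666). For Kdm1a, the LSD1 demethylase found in CoREST complexes, WT signals of 4300, 3934 and 4401 and DKO signals of 3961, 4061 and 4486 covered the same range. Its difference was -0.02 ± 0.16, with a 95% interval of -0.36 to 0.33. All 12 tested probe sets of the 3 H3K4 demethylases had negative differences, with a median of -0.53, where 54.4% of all tested probe sets were lower. With median centring 9 of the 12 were negative, with a median of -0.42 beside 0.056 over all tested probe sets. With an array left out 9 to 11 were negative, 9 of them without DKO replicate 2. Probe sets of a gene share its RNA, so they are not independent. The mean level of the 3 genes, each gene taken relative to its own mean over the 6 arrays, ranged over 0.08 to 0.25 on the WT arrays and over -0.19 to -0.10 on the DKO arrays. Among relatives outside the list, Kdm5c (0.15 ± 0.29) and Kdm1b (0.28 ± 0.38) were higher in DKO and the Y-linked Kdm5d was lower (-1.04 ± 0.32). None of these relatives passed.

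**Figure D2:**
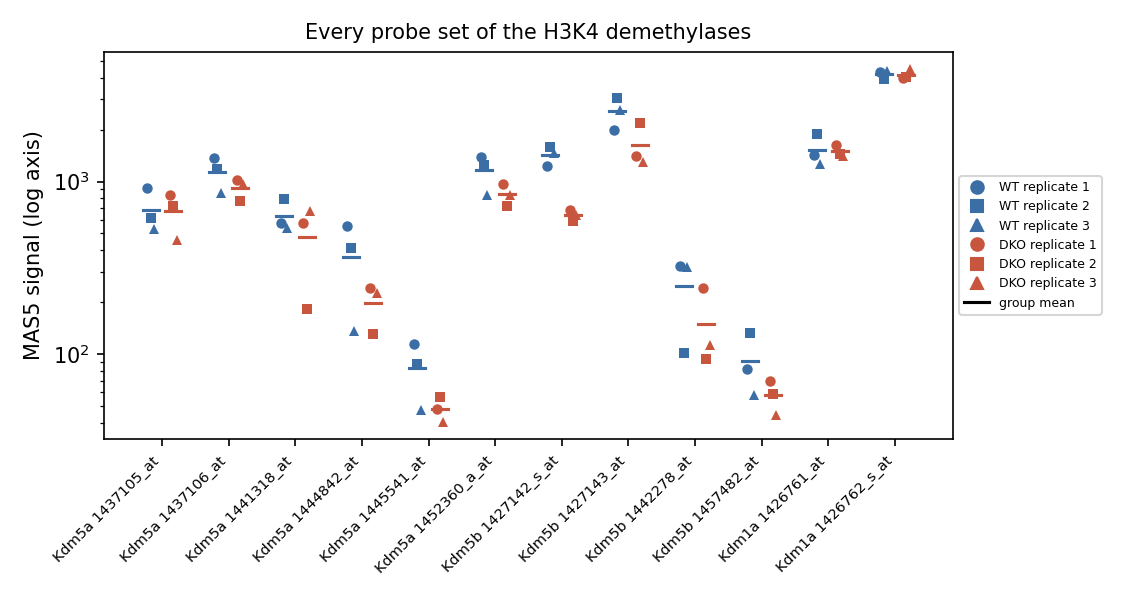
MAS5 signal (y axis, log scale) of the 12 probe sets of Kdm5a, Kdm5b and Kdm1a (x axis), with 1 point per array (WT blue, DKO red, replicates by shape) and a line at each group mean. At Kdm5b 1427142_s_at the 3 DKO arrays lie at 593 to 686 and the 3 WT arrays at 1224 to 1578, while the Kdm1a arrays mix.

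No probe set of the H3K27 demethylases passed the threshold. Kdm6a (UTX) is X-linked and escapes X inactivation. Its brightest probe set read 1664, 872 and 928 in WT and 1099, 1269 and 1268 in DKO, with every DKO value inside the WT range. The difference was 0.13 ± 0.27 (adjusted p = 0.885), and those of the other 2 tested probe sets were 0.30 ± 0.37 and 0.34 ± 0.28. Female and male transcripts were present on all arrays. The female transcript Xist spanned 1921 to 9193 on WT arrays and 3900 to 6276 on DKO arrays (probe set 1436936_s_at). The Y-linked Eif2s3y spanned 2176 to 4040 and 2041 to 3858 at 1417210_at. At its dimmer probe set, 1431642_at, it spanned 622 to 717 in WT and 271 to 636 in DKO. The Y-linked relatives of Kdm6a and of the KDM5 genes, Uty and Kdm5d, were at 563 ± 70.8 and 1434 ± 251 in WT and at 330 ± 65.1 and 722 ± 271 in DKO. Their differences of -0.75 ± 0.31 and -1.04 ± 0.32 did not pass (adjusted p = 0.288 and 0.151), and the part of the sex ratio of the pools in any of these values was not tested.

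Kdm6b (JMJD3), an inducible demethylase of H3K27, had probe sets of opposite sign. The brightest was at 683, 1101 and 250 in WT and 1115, 428 and 519 in DKO, a wide overlap (0.12 ± 0.50, adjusted p = 0.947). The second, 1447612_x_at, was at 334, 508 and 471 in WT and 120, 258 and 269 in DKO, with no overlap. Its difference was -1.02 ± 0.39 (adjusted p = 0.251).

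Promoter sequence was available for 37 of the 44 genes, in 46 windows of 300 bases (250 before to 50 after a RefSeq transcript start, assembly GRCm38.p6). NR4A receptors bind as monomers to the sequence AAAGGTCA, which contains the nuclear receptor half-site AGGTCA, and both were searched on both strands. The longer sequence was found in 1 of the 46 windows (2.17%), against 1.51% of all 32851 windows in the table, and the half-site in 6 (13.0%), against 16.3%. The windows of these genes were rich in CG dinucleotides, with a median of 23.5 against 7.0 over all windows.

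The windows of 3 genes are shown, each on the strand of its gene and 5′ to 3′, with matches in capitals. Kdm5b is shown as the gene of the probe set that passed the threshold. Its window at chr1:134559928-134560227 (+) has 17 CG dinucleotides and neither sequence. Phc3, the gene with the lowest difference, has 1 half-site on the opposite strand, starting 78 bases before the transcript start, in chr3:30969366-30969665 (-). Kdm6a holds the 1 match to the longer sequence, starting 33 bases before the start, in chrX:18162325-18162624 (+). A match in these letters does not show binding.
Kdm5b: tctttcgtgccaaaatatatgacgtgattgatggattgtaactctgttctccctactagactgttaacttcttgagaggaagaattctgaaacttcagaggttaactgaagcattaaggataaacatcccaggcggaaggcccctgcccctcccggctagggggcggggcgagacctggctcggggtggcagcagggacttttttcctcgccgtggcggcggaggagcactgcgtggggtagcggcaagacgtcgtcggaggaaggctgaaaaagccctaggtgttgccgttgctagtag
Phc3: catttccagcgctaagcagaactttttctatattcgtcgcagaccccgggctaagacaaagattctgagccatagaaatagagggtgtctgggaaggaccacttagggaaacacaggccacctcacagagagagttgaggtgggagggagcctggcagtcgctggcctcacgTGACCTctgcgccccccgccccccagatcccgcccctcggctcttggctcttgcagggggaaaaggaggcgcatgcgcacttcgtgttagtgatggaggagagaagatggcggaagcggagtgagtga
Kdm6a: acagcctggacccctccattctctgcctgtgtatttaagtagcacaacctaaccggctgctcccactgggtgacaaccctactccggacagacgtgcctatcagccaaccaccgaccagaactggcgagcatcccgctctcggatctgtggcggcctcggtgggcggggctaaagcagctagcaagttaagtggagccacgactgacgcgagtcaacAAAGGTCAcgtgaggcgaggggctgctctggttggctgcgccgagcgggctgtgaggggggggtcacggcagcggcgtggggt

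In the PRC2 core the catalytic subunit Ezh2, which predominates in dividing cells, had nearly equal group means. Its single probe set was at 4336, 3933 and 4020 in WT and 3836, 4099 and 4383 in DKO. The groups covered the same range, at 4096 ± 212 and 4106 ± 273 (SD, n = 3). The difference was 0.00 ± 0.16 (adjusted p = 0.997), and its 95% interval of -0.34 to 0.35 leaves room for changes of that size. Of 19 measured proliferation genes 0 passed in limma (1.71% of all genes) and 1 had an unadjusted p under 0.05 (5.26%, against 16.3%). Only 4 were lower in DKO (21.1%, against 50.8% of all genes), with a median of 0.19 against -0.0078. The mean level of the 19 genes spanned -0.24 to 0.18 on WT arrays and -0.10 to 0.25 on DKO arrays.

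Ezh1, the relative of Ezh2 found in resting cells, gave different values at its 4 probe sets. The brightest, 1449023_a_at, was at 519, 424 and 296 in WT and 265, 212 and 189 in DKO. All DKO arrays lay below all WT arrays, yet the difference of -0.83 ± 0.35 did not pass (adjusted p = 0.313), and it ran from -1.04 to -0.58 over the alternatives. Probe set 1418290_a_at was at 405, 250 and 157 in WT and 339, 211 and 237 in DKO, an overlap with a difference of 0.02 ± 0.41 (adjusted p = 0.989). Probe set 1429630_at was at 266, 325 and 61.9 in WT and 209, 24.4 and 105 in DKO, where the spread within each group exceeded the difference of -0.92 ± 0.69 (adjusted p = 0.592). The last, 1429629_at, was too dim to be tested, at 16.2, 138 and 3.0 in WT and 23.3, 10.0 and 25.2 in DKO. Only WT replicate 2 stood out there.

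Suz12, the scaffold of PRC2, was read brightest by 1420021_s_at, at 4682, 5885 and 5019 in WT and 6935, 6767 and 6658 in DKO. All DKO arrays lay above all WT arrays, but the difference of 0.39 ± 0.15 did not pass (adjusted p = 0.265). The 5 other Suz12 probe sets were at -0.28 to 0.25, 4 of them higher, and none passed. Eed, which binds methylated H3K27, was at 6074 ± 649 in WT and 6163 ± 904 in DKO (0.02 ± 0.17). The histone chaperones Rbbp4 (-0.10 ± 0.13) and Rbbp7 (0.09 ± 0.14), shared with other complexes, were also within their spread. The far dimmer Rbbp4 probe sets were at -0.04 to 0.30, and none passed. Over the 6 core genes the median was 0.0095, and its sign turned in several alternatives (-0.071 without DKO replicate 3).

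**Figure D3:**
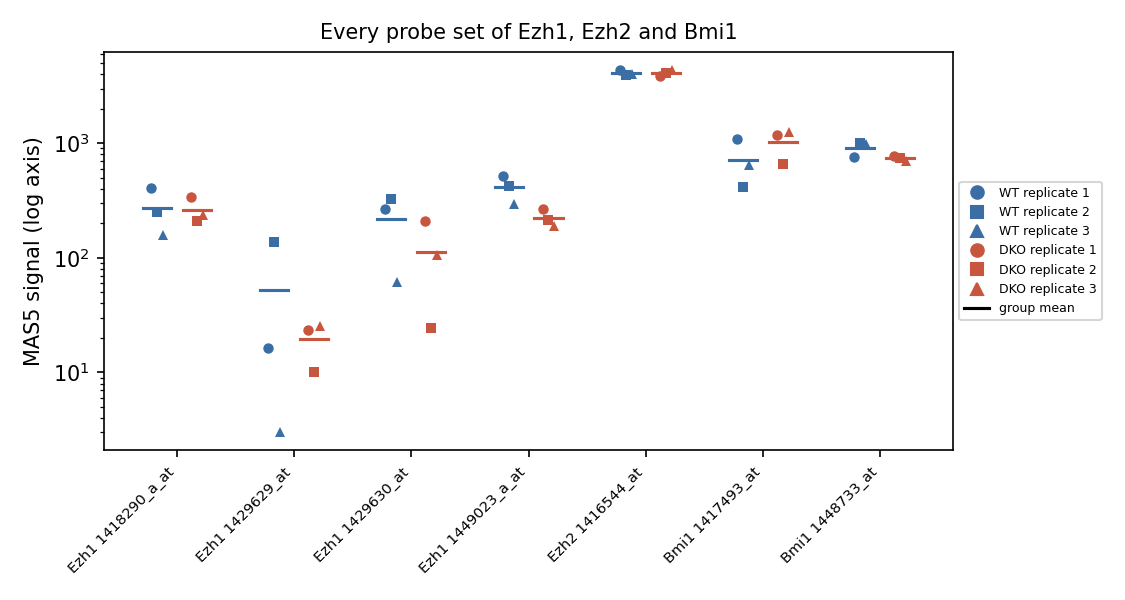
MAS5 signal (y axis, log scale) of each probe set of Ezh1, Ezh2 and Bmi1 (x axis), with 1 point per array (WT blue, DKO red, replicates by shape) and a line at each group mean. Ezh2 arrays lie together at 3836 to 4383, Ezh1 is lower in DKO at 1449023_a_at alone without overlap, and the 2 Bmi1 probe sets differ in sign.

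The accessory subunits recruit PRC2 or modify its activity. Jarid2, which helps PRC2 bind its targets, overlapped at its brightest probe set, with 2798, 2105 and 2769 in WT and 2292, 2684 and 2155 in DKO (-0.10 ± 0.20, adjusted p = 0.875). Its other probe sets stood lower: 1422697_s_at was at 864, 774 and 976 in WT and 502, 382 and 377 in DKO. That gave a difference of -1.03 ± 0.27 without overlap, which did not pass the threshold of 0.05. The remaining one, 1450710_at, was at -0.55 ± 0.25 (adjusted p = 0.357), also without overlap. Mtf2 (PCL2), which binds CG-rich DNA, was at 6982, 5449 and 5437 in WT and 5508, 4624 and 4270 in DKO. WT replicates 2 and 3 lay just below DKO replicate 1, and the difference was -0.31 ± 0.17 (adjusted p = 0.450). Of the 5 tested Mtf2 probe sets 4 were lower. Among the dimmer ones 1418514_at was at -0.53 ± 0.23 without overlap (adjusted p = 0.323) and 1418515_at at 0.01 ± 0.24. Phf19 (PCL3) was dim, at 88.2, 114 and 114 in WT and 96.8, 77.9 and 39.7 in DKO, an overlap with a difference of -0.53 ± 0.45. Phf1 (PCL1) was at 92.7 ± 53.4 in WT and 94.7 ± 40.7 in DKO, and its 95% interval of -1.05 to 1.25 shows how little a dim probe set can tell.

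PRC1 is built on RING1 or RNF2 (RING1B), the ubiquitin ligases, and 1 of 6 PCGF proteins. Bmi1 (PCGF4) had 2 probe sets that went opposite ways. The brighter, 1448733_at, was at 757, 997 and 980 in WT and 771, 745 and 699 in DKO. DKO replicates 1 to 3 lay near WT replicate 1 and below WT replicates 2 and 3, and the difference was -0.29 ± 0.25 (adjusted p = 0.647). The other, 1417493_at, was at 1098, 413 and 639 in WT and 1176, 663 and 1240 in DKO, a scattered overlap (0.57 ± 0.37, adjusted p = 0.530).

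The ligase genes gave no call, Rnf2 at -0.22 ± 0.21 and Ring1 at -0.23 ± 0.27. Pcgf5, a subunit of variant PRC1, was at 6143, 7292 and 6267 in WT and 4655, 5830 and 6065 in DKO. The groups did not overlap, but WT replicate 1 and DKO replicate 3 were close, and the difference was -0.26 ± 0.16 (adjusted p = 0.520). A dimmer Pcgf5 probe set, 1453636_at, was at -0.92 ± 0.30 (adjusted p = 0.185). Pcgf3, also of variant PRC1, was at 602, 406 and 415 in WT and 355, 447 and 264 in DKO, which overlapped (-0.41 ± 0.33, adjusted p = 0.625). Pcgf1, Pcgf2 and Pcgf6 lay at -0.14 ± 0.51, 0.34 ± 0.53 and 0.18 ± 0.27. Over the 8 RING and PCGF genes 6 were lower, with a median of -0.23. It was -0.045 with 4 lower without WT replicate 3, -0.12 without DKO replicate 3 and with median centring, and -0.0765 when the probe sets of a gene were averaged.

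The CBX and PHC subunits of canonical PRC1, which read methylated H3K27 and link complexes together, had a median of -0.35, with 6 of 7 genes lower. It ran from -0.24 with a pseudocount of 64 to -0.67 without DKO replicate 1, and was -0.62 both without WT replicate 2 and with the lowest 60% left out. Phc3, a Polyhomeotic homologue whose SAM domain forms polymers, came nearest to the threshold of all 43 genes. Its brightest probe set was at 1899, 1630 and 1622 in WT and 848, 615 and 1166 in DKO. All DKO arrays lay below all WT arrays, and the mean went from 1717 ± 158 to 876 ± 277 (-1.001 ± 0.262, adjusted p = 0.0975). It was the 1 gene of the 43 past an adjusted p of 0.10. The mean over its 2 probe sets differed by -0.46, since the dim one was at 0.07 ± 0.60.

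Cbx6 encodes a chromodomain protein of PRC1. It was at 3906, 3102 and 3897 in WT and 2350, 2496 and 1871 in DKO. The highest DKO array lay below the lowest WT array, and the difference was -0.70 ± 0.19 (adjusted p = 0.116). The dimmer Cbx6 probe set was at -0.28 ± 0.47. Phc1 was at 1909 ± 857 and 1187 ± 381 (-0.62 ± 0.36) and Phc2 at 757 ± 332 and 924 ± 416 (0.25 ± 0.42). For Phc2 the dimmer probe set had the opposite sign (-0.07 ± 0.37). Cbx7, the CBX protein tied to stem cell self-renewal, was dim at 104 ± 43.7 in WT and 96.5 ± 40.5 in DKO (-0.09 ± 0.47). Cbx2 (-0.29 ± 0.45) and Cbx8 (-0.35 ± 0.43) were dim as well, so their intervals are wide. Bcor, a subunit of variant PRC1 with PCGF1, was at 3749, 3223 and 3878 in WT and 3017, 3225 and 4186 in DKO, an overlap with a difference of -0.07 ± 0.19 (adjusted p = 0.917).

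The PR-DUB complex removes the ubiquitin that PRC1 adds to H2A. Its catalytic subunit Bap1 was at 3045 ± 832 in WT and 3273 ± 693 in DKO (0.12 ± 0.23). Asxl1, a frequent target of mutation in myeloid disease, was at 1741, 2053 and 2210 in WT and 1697, 1795 and 2049 in DKO (-0.11 ± 0.20, adjusted p = 0.856). Asxl2 was at 1813, 1963 and 1479 in WT and 1808, 1416 and 1590 in DKO (-0.12 ± 0.21, adjusted p = 0.852). At the brightest probe set of all 3 genes the groups overlapped. A dimmer Bap1 probe set, 1426354_at, was at 1053, 793 and 1074 in WT and 734, 731 and 738 in DKO. Its difference of -0.39 ± 0.25 had the opposite sign, without overlap, and did not pass (adjusted p = 0.519).

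The KMT2 methyltransferases had differences below 0 of varying size, none of which passed. Kmt2c (MLL3), which methylates H3K4 at enhancers, had 4 tested probe sets, all lower, at -0.71 to -0.38. At the brightest, signals were 6126, 4900 and 5209 in WT and 2763, 2875 and 4459 in DKO. DKO replicates 1 and 2 were far below WT and DKO replicate 3 just below it, and the difference was -0.71 ± 0.21 (adjusted p = 0.134). Kmt2a (MLL1) was at 1030 ± 192 in WT and 656 ± 282 in DKO, with overlap (-0.71 ± 0.33, adjusted p = 0.355). Kmt2d (MLL4), the relative of Kmt2c, was at 4977 ± 302 and 4729 ± 186 (-0.07 ± 0.15), and Kmt2e (MLL5), which lacks detectable methyltransferase activity, was at -0.17 ± 0.17.

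Dot1l, the H3K79 methyltransferase that acts with MLL fusions in leukaemia, had the highest difference of the 43. It was dim, at 151, 220 and 222 in WT and 400, 458 and 269 in DKO. All DKO arrays lay above all WT arrays, but the difference of 0.86 ± 0.36 did not pass (adjusted p = 0.310), and its second probe set was at 0.33 ± 0.42. Men1 encodes menin, which tethers MLL1 to chromatin. It was at 182, 198 and 184 in WT and 123, 125 and 84.0 in DKO, apart but dim (-0.70 ± 0.39, adjusted p = 0.441), and its second tested probe set had the opposite sign (0.37 ± 0.47). Wdr5, a core COMPASS subunit, was at 1777, 1702 and 2137 in WT and 2533, 2240 and 1993 in DKO, where DKO replicate 3 lay inside the WT range (0.27 ± 0.20, adjusted p = 0.589). The core subunits Ash2l (-0.01 ± 0.21) and Rbbp5 (0.24 ± 0.28) did not pass either.

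Probe sets of a gene often disagreed, in these genes as over all genes. Of the 17 genes with at least 3 tested probe sets, all probe sets were lower in DKO for 6 (35.3%), against 25.1% of all genes with as many. These were Jarid2, Pcgf5, Cbx7, Kmt2c, Kdm5a and Kdm5b, of which with median centring Kmt2c and Kdm5b alone kept every probe set lower. For 1 gene, Kdm6a, all were higher (5.88%, against 17.1%).

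Further genes of the same pathways gave 0 calls in limma. They were 30 measured other Polycomb genes (18 lower, median -0.15), 37 other trithorax genes (27 lower, -0.11) and 20 other histone demethylases (12 lower, -0.09). At an unadjusted p under 0.05 there were 7 (23.3%), 5 (13.5%) and 3 of 20, against 16.3% of all genes. With median centring 16 of 30, 20 of 37 and 10 of 20 were lower, where 41.3% of all genes were lower, against 50.8% without it. The smallest p among the first belonged to Tfdp1, a partner of E2F6 in variant PRC1, at 3619 ± 516 and 5570 ± 94.5 (0.63 ± 0.165, adjusted p = 0.0975), and to Mbd6 (-0.74 ± 0.27, adjusted p = 0.237). Among trithorax genes they belonged to the chromatin remodellers Chd7, at 591 ± 352 and 1726 ± 258 (1.68 ± 0.37, adjusted p = 0.0527), and Chd8 (-1.10 ± 0.28, adjusted p = 0.0922). Chd7 passed in 7 of 16 alternatives. For Chd8 the mean over its probe sets was 0.064 (adjusted p = 0.938), with the sign turned. Among demethylases they belonged to the Y-linked Kdm5d and Uty given above.

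Among genes known as targets of these complexes in blood cells some changed. Of 19 measured, out of 26 listed, 3 fell and 2 rose in DKO, where 1.71% of all genes passed. There were 14 lower (73.7%), against 50.8% of all genes, with a median of -0.65. Mecom, a stem cell transcription factor, differed by -1.66 ± 0.22 (adjusted p = 0.00390), Hoxa9, a target of MLL1, by -0.86 ± 0.16 (adjusted p = 0.0259) and its cofactor Meis1 by -1.33 ± 0.28 (adjusted p = 0.0456). Id2, an inhibitor of E proteins in lymphocytes, rose by 2.54 ± 0.37 (adjusted p = 0.00614), and Cebpa, a regulator of granulocyte fate, rose by 1.24 ± 0.23 (adjusted p = 0.0242). Mecom kept its call with each of the 6 arrays left out in turn and Id2 with 5 of 6 (adjusted p = 0.0573 without DKO replicate 3). Hoxa9 kept it with 2 of 6 (adjusted p = 0.0211 to 0.124), Cebpa with 1, the one without WT replicate 2 (0.0237 to 0.120), and Meis1 with 1, the one without WT replicate 3 (0.0172 to 0.166). Without an intensity trend none of the 5 passed, with adjusted p of 0.0694 for Mecom, 0.0609 for Id2, 0.0879 for Cebpa, 0.227 for Hoxa9 and 0.175 for Meis1. Cebpa also missed the threshold with the replicate block (0.0508), and Hoxa9 with no filter (0.0662), median centring (0.0984) and averaged probe sets (0.115). Over all 16 alternatives Mecom passed in 15, Id2 in 14, Cebpa in 9, Hoxa9 in 8 and Meis1 in 4. The list was put together with earlier results of these arrays known. Its measured genes Mecom, Ebf1 and Gata2 also count among the cell type markers below.

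The mean level of the 43 genes, each relative to its own mean over the 6 arrays, was 0.14, -0.01 and 0.12 in WT and -0.02, -0.06 and -0.16 in DKO. WT replicate 2 thus lay just above the DKO arrays, apart from the other 2 WT arrays. In the CBX and PHC genes it was at -0.09, against 0.30 and 0.39 in WT replicates 1 and 3, and the DKO arrays were at -0.28 to -0.10. In the PRC2 accessory genes WT replicate 2, at -0.19, was the lowest of all arrays, next to DKO replicate 3, also at -0.19.

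**Figure D4:**
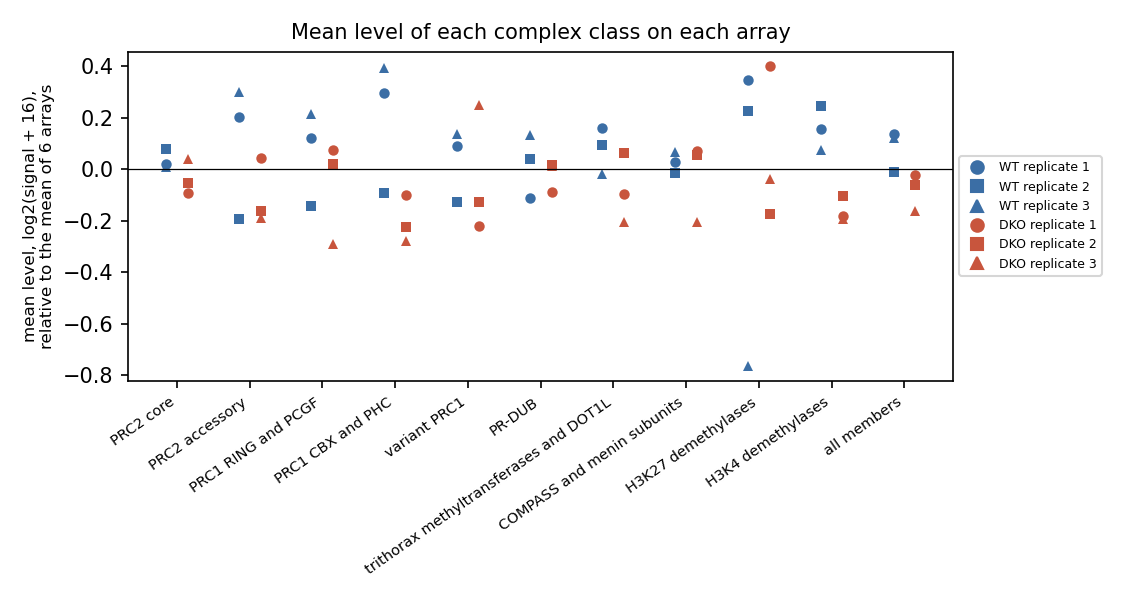
Mean level of each complex class on each array (y axis, log2 of signal + 16, each gene relative to its mean over the 6 arrays; points are arrays, WT blue, DKO red, replicates by shape). WT and DKO arrays are apart for the H3K4 demethylases (0.08 to 0.25 against -0.19 to -0.10). They are apart by little for the CBX and PHC genes (lowest WT -0.0913, highest DKO -0.0987) and over all members (-0.0116 and -0.0208). The other classes mix, and WT replicate 3 is low in the H3K27 demethylases (-0.76).

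The arrays differed in the cells they reported. Markers of neutrophils, of the B lineage and of erythroid cells were highest on WT replicate 2, with mean levels of 1.60, 1.41 and 1.66, and the neutrophil and erythroid markers were lowest on WT replicate 3 (-1.22 and -1.71). Among stem and progenitor markers 4 of 9 fell in DKO and 0 rose (levels of 0.32 to 0.53 on WT arrays, -0.51 to -0.34 on DKO arrays). Ptprc (CD45), the marker of all blood cells, was at 8682 ± 675 and 10108 ± 1286, and Kit at 2779 ± 312 and 1825 ± 144. Ly6a, which encodes Sca1, had no probe set of its own. Of 11 measured mast cell, basophil and eosinophil markers 7 rose (-1.58 to -0.73 in WT, 1.13 to 1.41 in DKO), among them the eosinophil peroxidase gene Epx. Of 14 T and NK cell markers 7 rose (-1.46 to -0.84 and 0.97 to 1.28), where 1.71% of all genes passed. Fcer1a and Ccr3 of the first list and Gzmb and Cd3e of the second had WT means below the filter limit of 53.2 and were tested only through their DKO signals, so these counts are a description. Cd3e was at 13.3 ± 8.7 in WT and at 231 ± 39.6 in DKO. The part of these cells in the differences of the chromatin genes and of their target genes was not tested. In such bulk RNA fewer cells of a type and less RNA per cell cannot be told apart. Of 7 monocyte and macrophage markers 1 rose. Nr4a1 itself was at 1065 ± 230 in WT and 21.4 ± 12.9 in DKO (adjusted p = 1.95e-04), while the 3 Nr4a3 probe sets did not pass the filter on low values and were not tested. Their WT and DKO means were 98.9 ± 66.6 and 19.1 ± 10.6 (1438796_at), 51.2 ± 10.7 and 8.5 ± 10.9 (1421079_at, without overlap), and 52.9 ± 9.9 and 47.2 ± 22.5 (1421080_at). Median signals per array were 91.6 to 122.5.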

How the data were processed

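RNA was hybridised to 6 Affymetrix arrays, 3 of WT and 3 of DKO pools. The authors deposited 1 linear intensity per probe set and array, MAS5 signals per the submitters' processing notes (no version given), and every array has a trimmed mean (2% at each end) of 500. The series table has 45101 probe sets, 64 of them controls, which were left out. Of the rest 34945 have 1 gene symbol in the platform annotation. Signals were turned into log2(signal + 16), the 40% with the lowest mean were left out (a limit near a signal of 53.2), and 27022 probe sets were fitted with limma 3.58.1 in R 4.3.3 (lmFit, eBayes with an intensity trend, two-sided, no block). p-values were adjusted over all of them by Benjamini-Hochberg. The fit was run on simulated arrays as a check of the code, and its recovery of changes as small as those seen here is not given. The number of arrays limits the precision.

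"Rose" and "fell" are used for values with an adjusted p under 0.05. Array values were given for every probe set of Ezh1, Ezh2 and Bmi1, for each member past the threshold and for the 2 members of smallest p in each of 10 classes, and other probe sets were named after their values were seen. Members and lists were chosen with earlier results of these data known. Of other lists the members past the threshold, or else the 2 of smallest p, were named. Mean levels average log2 values, each gene relative to its mean over the 6 arrays. Motifs were searched in RefSeq promoter windows. Plots used matplotlib 3.10.9 (Python 3.11.15).

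Settings varied one at a time were the pseudocount (1 or 64), the filter (none, or 60% left out), the scaling (quantile normalization or median centring), the intensity trend (none), quality weights per array, the replicate number as a block, the arrays used (each omitted once), the adjusted p threshold (0.10) and the summary of a gene (the mean of its probe sets). The sources used here give no batch, date or slide.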

Additional observations from a re-analysis of the deposited data

How the results depend on the processing

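No gene of the 43 passed the threshold in limma under any alternative at an adjusted p of 0.05, and 1, Phc3, passed at 0.10; 7 had an unadjusted p under 0.05. Their median difference of -0.11 was -0.17 to -0.083 with arrays omitted one at a time. With median centring it was -0.0050, where the median over all genes was 0.10. The count of probe sets past the threshold over the whole table, 370, was 104 (without DKO replicate 3) to 469 with arrays omitted, 88 without an intensity trend, 208 with no filter on low values, 563 with array quality weights and 738 at an adjusted p of 0.10. With the replicate number as a replicate block it was 312, and 0 of the 43 genes passed. Whether same-numbered arrays were handled together is not known. Their deviations from the group means correlated at 0.142, -0.0306 and 0.0531, and those of differently numbered arrays at -0.132 to 0.0634. With 3 arrays a group these values cannot decide it. The Kdm5b probe set 1427142_s_at had an adjusted p of 0.0695 with the block. It kept its call with pseudocounts of 1 and 64, with the lowest 60% left out and with array quality weights, and lost it in the other fits.

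Differences near 0 turned their sign, none of them called. With median centring Rbbp4 was at 0.0099, Jarid2 at 0.0084, Cbx7 at 0.018, Bcor at 0.0405, Kmt2d at 0.035, Ash2l at 0.094 and Kdm1a at 0.0925. Quantile normalization gave -0.063 for Ezh2, -0.059 for Eed, 0.036 for Rbbp4 and 0.0026 for Cbx7, and array quality weights -0.028 for Ezh2, -0.0023 for Eed and -0.070 for Phf1. Averaging the probe sets of a gene gave 0.041 for Rbbp4, 0.14 for Bmi1, 0.0895 for Bcor, 0.11 for Asxl1, -0.13 for Bap1, 0.051 for Ash2l and -0.45 for Kdm6b. With an array left out the ranges were -0.29 to 0.35 for Ezh1 1418290_a_at, -0.045 to 0.050 for Ezh2, -0.0965 to 0.11 for Eed, -0.36 to 0.45 for Phf1, -0.55 to 0.19 for Pcgf1, -0.25 to 0.75 for Pcgf2, -0.37 to 0.19 for Cbx7, -0.086 to 0.70 for Phc2, -0.21 to 0.027 for Bcor, -0.044 to 0.33 for Bap1, -0.071 to 0.079 for Ash2l, -0.040 to 0.42 for Kdm6a, -0.45 to 0.58 for Kdm6b and -0.069 to 0.021 for Kdm1a. The cause of these turns was not tested. With 3 arrays a group the 95% intervals of dim probe sets are wide, such as -1.05 to 1.25 for Phf1.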
